A study of Mus musculus with 39 samples.

Results

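Elastic fibre genes were followed in left ventricular RNA of mouse hearts. The set held 10 genes chosen by name, Eln, Fbn1, Fbln1, Fbln2, Fbln5, Efemp1, Efemp2, Mfap4, Mfap5 and Ltbp2, out of 38293 genes in the count table, and all 10 passed the filter on low counts in every comparison. The 39 libraries came from C57BL6/J mice. In 1 series, wild type hearts and hearts homozygous for Pln R14del, a deletion of arginine 14 of phospholamban, the brake on the heart muscle's main calcium pump, were taken without surgery at 3 weeks (n = 4 each), 5 weeks (n = 4 each) and 8 weeks (wild type n = 3, homozygous n = 4), with heterozygous hearts (Pln wt/R14del) at 8 weeks (n = 4). In the other, wild type males had surgery on the left anterior descending coronary artery at 12 weeks of age. Hearts were taken at 12 weeks, 3 days after temporary closure (ischemia-reperfusion, n = 4), or at 20 weeks, 8 weeks after permanent closure (infarction, n = 4), in both from muscle remote from the infarct. The 4 sham hearts pooled 2 of 12 weeks and 2 of 20 weeks of age. Each library has a name of its own in the labels, which do not say that the libraries are separate animals. The p-values rest on the spread between these libraries, which may in part be technical.

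Elastic fibres give arteries, lung and skin, and to a lesser degree the heart wall, their recoil. They are built from a core of crosslinked elastin, encoded by Eln, laid down on microfibrils of fibrillin, of which fibrillin-1 (Fbn1) is the main adult form. Microfibril-associated glycoproteins (Mfap4, Mfap5) and latent TGF-beta binding proteins (Ltbp2) attach to the microfibrils. Fibulins (Fbln1, Fbln2, Fbln5, and Efemp1 and Efemp2, which encode fibulin-3 and fibulin-4) bridge elastin, microfibrils and basement membrane, and fibulin-4 and fibulin-5 help bring lysyl oxidases to elastin for crosslinking. Most elastin is made before and soon after birth and turns over slowly.

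Levels are given as CPM, counts scaled to a library's total, which ran from 9.40 M to 19.3 M. The 5-week libraries (9.78 M to 11.98 M) carry another series of names in the labels than those of 3 and 8 weeks, and the sources used here do not say whether they were prepared together. Mitochondrial genes took 8.27% to 15.45% of counts in homozygous hearts at 8 weeks, with replicate 1 at 15.45% and the other 3 at or below 10.58%, and 15.24% to 16.45% in wild type hearts of that age. Replicate 1 was also the lowest of the 4 for 9 of the 10 elastic fibre genes. Heart muscle transcripts were abundant in every group: 10 cardiomyocyte markers summed to 77726 to 81532 CPM in wild type and 31700 to 53696 CPM in homozygous hearts of 8 weeks, and none was at 0 in any library.

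Measured per kb of exon, which allows genes to be set side by side, the order of the members in wild type hearts of 8 weeks ran from Fbln1 at 26.6 ± 3.68 CPM per kb (mean ± SD, n = 3), Fbln2 at 24.2 ± 1.45 and Mfap4 at 17.6 ± 2.11 down to Efemp1 at 2.24 ± 0.278 and Ltbp2 at 1.42 ± 0.278. Neighbours in the order such as Fbln1 and Fbln2 differed by less than their spread. In homozygous hearts of the same age Mfap4 led with 162 ± 26.5 CPM per kb (n = 4), followed by Fbln2 at 114 ± 14.5 and Mfap5 at 107 ± 24.6, and Ltbp2, the lowest of the 10 in wild type, was the fifth at 39.7 ± 6.75. The 10 genes together took a sum of 547 ± 48.5 CPM in wild type and 2881 ± 403 CPM in homozygous hearts of 8 weeks, against 395 ± 69.3 CPM in shams, 945 ± 174 after ischemia-reperfusion and 1176 ± 345 after infarction.

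**Figure D1:**
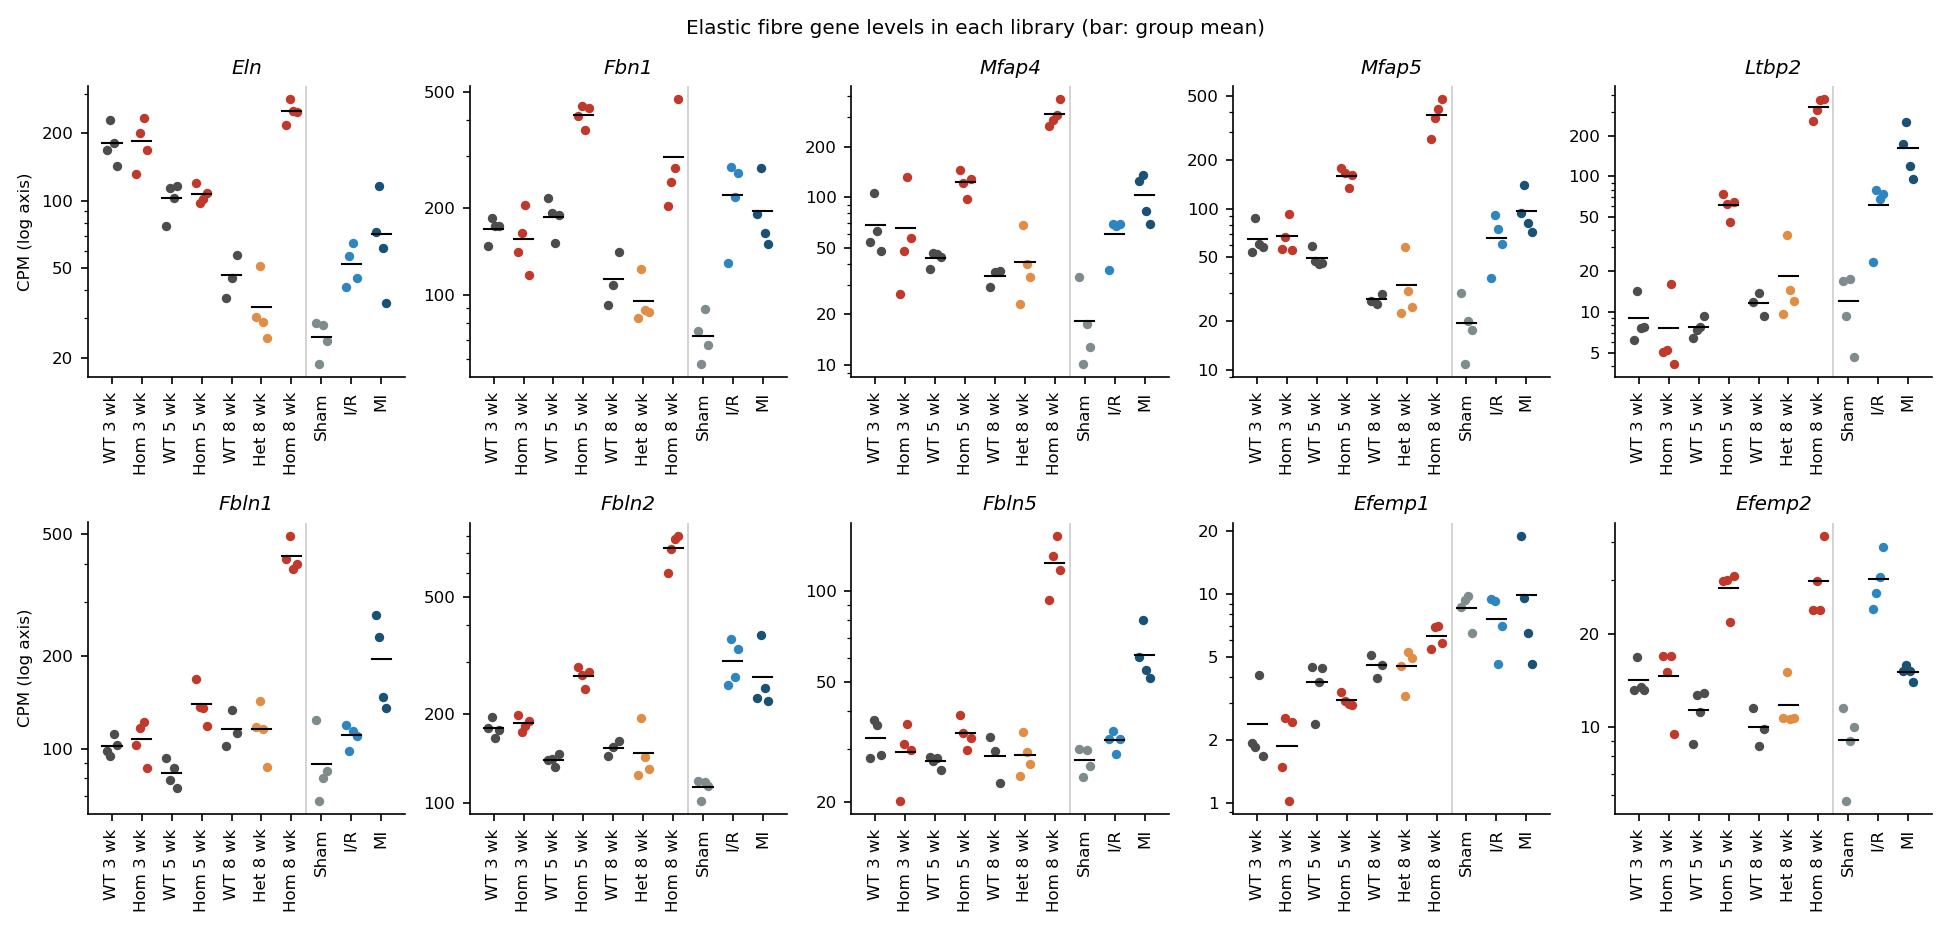
CPM of each elastic fibre gene (log axis) in each of the 39 libraries, by group. Points are libraries and bars are group means. WT is wild type, Het and Hom are heterozygous and homozygous for Pln R14del, I/R is ischemia-reperfusion and MI is infarction. Homozygous hearts of 8 weeks lie above the wild type hearts of that age for all 10 genes.

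The first question was when the homozygous hearts departed from wild type. At 3 weeks none of the 10 genes passed the test (edgeR quasi-likelihood test, Benjamini-Hochberg adjusted over all genes, adjusted p at least 0.699), against a background of 0% of 13427 genes called. That count of 0 genes stands beside 1515 genes at an unadjusted p under 0.05, while DESeq2 called 112 genes and limma-voom 0, none of them an elastic fibre gene. At 5 weeks 7 of the 10 rose and none fell, where 22.3% of all genes tested were called higher. At 8 weeks 9 of the 10 rose and none fell, where 30.8% of all genes were called higher. The median log2 fold change of the 10 was 0.85 at 5 weeks and 2.01 at 8 weeks, beside -0.00118 and 0.02 over all genes. All homozygous values lay above all wild type values for 8 of 10 members at 5 weeks and 10 of 10 at 8 weeks. The same was true of 35.9% and 35.1% of all genes tested.

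Heterozygous hearts of 8 weeks showed none of this in the test. None of the 10 genes was called against wild type (edgeR adjusted p of 1 for each), where 0% of all genes were called, 326 genes had an unadjusted p under 0.05 and DESeq2 also called 0. Heterozygous replicate 2 was the highest of its 4 libraries for 9 of the 10 genes. Against the same heterozygous hearts, 9 of the 10 genes rose in homozygous hearts, where 32% of all genes were called higher.

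In the surgery series 7 of the 10 genes rose 3 days after ischemia-reperfusion, against 16.9% of all genes called higher, and 9 of the 10 rose 8 weeks after infarction, against 6.62% of all genes. Both comparisons use the same 4 shams. Their values are therefore given side by side, with no measure of likeness. The medians of the 10 genes were 1.28 and 1.21 on the log2 scale, beside -0.02 and -2.28e-05 over all genes. With only the shams of matching age, 6 of the 10 rose after ischemia-reperfusion, Eln being the gene lost, and 9 after infarction.

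Over the 4 comparisons with calls, homozygous at 5 and at 8 weeks, ischemia-reperfusion and infarction, 6 genes rose each time (Fbn1, Mfap4, Mfap5, Ltbp2, Fbln2 and Efemp2), where 2.92% of 13136 genes tested in all 4 did. Both surgeries share their shams, so the 4 comparisons are not independent. Eln, Fbln1 and Fbln5 rose in some, and Efemp1 in none.

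**Figure D2:**
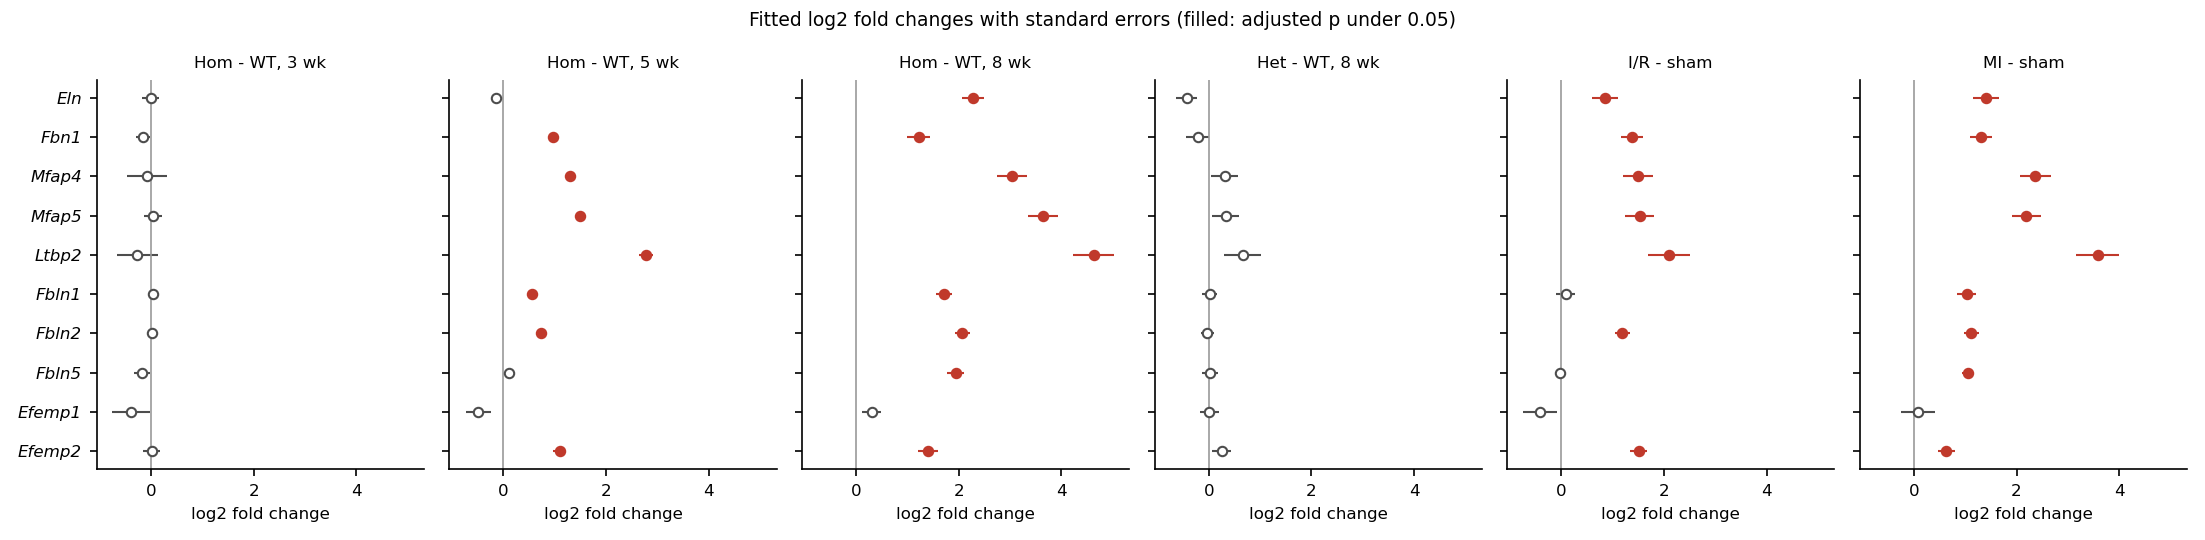
Fitted log2 fold change (horizontal axis) with its standard error for each gene in 6 comparisons. Filled points passed an adjusted p under 0.05. Ltbp2 has the largest fitted change of the 10 in each panel with filled points, and Efemp1 is open in all 6.

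Elastin fell with age in wild type hearts. Eln (ENSMUSG00000029675, minus strand of chromosome 5, 134702593 to 134747323, GRCm38) stood at 168, 229, 181 and 144 CPM in the 4 wild type hearts of 3 weeks, and at 77.1, 114, 103 and 117 CPM at 5 weeks. In the 3 wild type hearts of 8 weeks it was 36.7, 45.5 and 57.3 CPM. Each wild type library of 8 weeks lay below each of 3 weeks, and Eln fell by 1.94 ± 0.16 on the log2 scale between those ages (edgeR adjusted p = 4.44e-07). Across the wild type ages 5 of the 10 genes fell from 3 to 8 weeks, where 7.81% of all genes were called lower, and 1 rose, where 8.44% were called higher. Elastin had the largest fall of the 5, while the fall of Efemp2 (0.47 ± 0.14, edgeR adjusted p = 0.0259) lost its call without replicate 2 of 3 weeks or replicate 2 or 3 of 8 weeks. Ltbp2 was not called (0.41 ± 0.22), but was called higher at 8 weeks (0.71, edgeR adjusted p = 0.0106) without replicate 2 of 3 weeks. With limma-voom it was called too (0.58, adjusted p = 0.0442). Fbln2 was not called (-0.20 ± 0.07, edgeR adjusted p = 0.0513), but was called lower in 4 of 19 alternatives, among them DESeq2 (-0.19, adjusted p = 0.0253). The share of Eln in the summed level per kb of the 10 genes was 14.6% ± 0.922 at 3 weeks, 10.98% ± 1.89 at 5 weeks and 5.62% ± 0.903 at 8 weeks.

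Homozygous hearts were not called different in elastin at first. At 3 weeks Eln stood at 132, 201, 235 and 168 CPM and at 5 weeks at 120.02, 97.4, 102 and 108 CPM, in both cases overlapping the wild type range. At 5 weeks the fitted change was -0.15 ± 0.102 on the log2 scale (edgeR adjusted p = 0.262). Without wild type replicate 1 of 5 weeks, the lowest of its group at 77.1 CPM, the value was -0.26 with an edgeR adjusted p of 0.0168. This was the only 1 of 16 alternatives with a call. Over these the value ran from -0.26 to 0.06, so its sign depended on the processing. The mean CPM, scaled to library total only, was higher in homozygous than in wild type hearts of 5 weeks (107 against 103). At 8 weeks the homozygous hearts held 218, 284, 252 and 250.1 CPM, and the heterozygous ones 30.5, 51.3, 28.9 and 24.4 CPM. Every homozygous library lay above every wild type and heterozygous library, and Eln rose 4.83-fold over wild type (log2 2.27 ± 0.21, edgeR adjusted p = 2.68e-06). The homozygous effect was larger at 8 than at 5 weeks by 2.44 ± 0.33 on the log2 scale, tested as an interaction (edgeR adjusted p = 9.04e-07).

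Over all 10 groups the order of Eln ran from homozygous hearts of 8 weeks (251 ± 26.7 CPM) through the homozygous and wild type hearts of 3 weeks (184 ± 44.01 and 180.4 ± 35.9), those of 5 weeks (107 ± 9.84 and 103 ± 18.03), infarction (71.4 ± 33.8), ischemia-reperfusion (52.1 ± 10.7), wild type (46.5 ± 10.3) and heterozygous (33.8 ± 11.96) hearts of 8 weeks to shams (24.7 ± 4.499). Only the step from wild type hearts of 3 weeks to homozygous hearts of 5 weeks separated neighbours whose libraries did not overlap.

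After surgery Eln was 28.4, 18.7, 27.9 and 23.7 CPM in shams, 41.2, 56.9, 64.8 and 45.5 CPM after ischemia-reperfusion and 73.04, 116, 61.5 and 34.99 CPM after infarction. No library of either surgery overlapped the shams. Eln rose by 0.85 ± 0.26 on the log2 scale after ischemia-reperfusion (edgeR adjusted p = 0.0199) and, after infarction, by 1.403 ± 0.26 (edgeR adjusted p = 0.00339). The first call was lost with shams of matching age (adjusted p = 0.111), without ischemia-reperfusion replicate 3 (0.0642) and without sham replicate 2 (0.0634).

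Fibrillin-1 was already called higher in homozygous hearts of 5 weeks. Fbn1 (ENSMUSG00000027204, minus strand of chromosome 2, 125300594 to 125507993) stood at 215, 191, 151 and 188 CPM in wild type and 412, 449.6, 369 and 441 CPM in homozygous hearts of 5 weeks. The groups did not overlap, and Fbn1 rose 1.94-fold (log2 0.96 ± 0.09, edgeR adjusted p = 6.6e-08). At 8 weeks it was 92.2, 108 and 141 CPM in wild type and 203, 244, 274 and 472 CPM in homozygous hearts, with replicate 4 well above the other 3. The rise at that age was 2.32-fold (log2 1.22 ± 0.23, edgeR adjusted p = 0.00059). No further growth of this effect from 5 to 8 weeks was called (0.28 ± 0.29, edgeR adjusted p = 0.505). Fbn1 had its highest group mean in homozygous hearts of 5 weeks (418 ± 36.3 CPM), and its neighbouring groups overlapped at all 9 steps of the order.

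After surgery Fbn1 reached 222 ± 67.2 CPM with ischemia-reperfusion and 194 ± 55.97 CPM with infarction, against 72.4 ± 13.4 CPM in shams. It rose by 1.38 ± 0.21 and 1.301 ± 0.21 on the log2 scale (edgeR adjusted p = 0.000221 and 0.0018). The difference between the surgeries was -0.08 ± 0.21 and was not called. An exon on the opposite strand, of Gm9913, covers 20.1% of the Fbn1 exons, and the strand setting of the counting is not given in the sources used here, but Gm9913 itself took 152 counts over all libraries against 103013 for Fbn1.

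Both microfibril-associated glycoproteins rose at 5 and at 8 weeks. Mfap4 (ENSMUSG00000042436, plus strand of chromosome 11, 61485431 to 61488900), which binds fibrillin, elastin and collagen, stood at 37.4, 46.6, 45.8 and 44.3 CPM in wild type and 146, 122, 96.99 and 128 CPM in homozygous hearts of 5 weeks. At 8 weeks it was 29.2, 35.9 and 36.5 CPM in wild type and 267, 288, 309 and 384 CPM in homozygous hearts. All homozygous libraries were above all wild type ones at both ages, with rises of 2.45-fold and 8.21-fold (edgeR adjusted p = 4.27e-09 and 2.84e-06). The rise was larger at 8 than at 5 weeks by 1.77 ± 0.48 on the log2 scale (edgeR adjusted p = 0.00537).

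At 3 weeks Mfap4 varied more within groups than between them, at 54.1, 107, 63.01 and 47.8 CPM in wild type and 26.4, 47.8, 132 and 57.4 CPM in homozygous hearts. Wild type replicate 2 and homozygous replicate 3 were the highest of their groups. In these same libraries activated fibroblast markers summed to 912 to 1530 CPM in wild type and 727 to 1337 CPM in homozygous hearts, and the part of such cells in the spread was not tested.

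Mfap5 (ENSMUSG00000030116, plus strand of chromosome 6, 122505845 to 122529290), the microfibril-associated glycoprotein also called MAGP-2, stood at 58.9, 47.8, 45.7 and 46.3 CPM in wild type and 179, 167, 136 and 161 CPM in homozygous hearts of 5 weeks. At 8 weeks it was 26.7, 25.7 and 29.8 CPM in wild type and 271, 366, 418 and 479.7 CPM in homozygous hearts. The groups were separate at both ages, and Mfap5 rose 2.804-fold at 5 weeks and 12.4-fold at 8 weeks (edgeR adjusted p = 2.39e-10 and 1.05e-06). The 8-week effect exceeded that of 5 weeks by 2.17 ± 0.36 (edgeR adjusted p = 2.88e-05) and the infarction effect by 1.47 ± 0.37 on the log2 scale (edgeR adjusted p = 0.00191). Mfap4 and Mfap5 also fell between 3 and 8 weeks in wild type hearts, by 0.98 ± 0.19 and 1.22 ± 0.13 on the log2 scale (edgeR adjusted p = 0.00163 and 8.73e-06). In a fit of all 39 libraries the calls of Mfap4 (adjusted p = 0.0863), Fbn1 (0.114), Efemp2 (0.113) and Efemp1 (0.0819) between these ages were lost, and those of Eln and Mfap5 were not.

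After surgery Mfap4 was 33.3, 10.1, 17.5 and 12.8 CPM in shams, 36.9, 69.4, 67.7 and 69.04 CPM after ischemia-reperfusion and 125, 135, 82.99 and 69.4 CPM after infarction. Ischemia-reperfusion replicate 1 was close to sham replicate 1, and the other 3 lay together between 67.7 and 69.5 CPM. On the log2 scale Mfap4 rose by 1.49 ± 0.299 with ischemia-reperfusion and by 2.36 ± 0.302 with infarction (edgeR adjusted p = 0.00158 and 0.000364). Mfap5 was 19.7 ± 7.87 CPM in shams, 66.2 ± 23.04 CPM after ischemia-reperfusion and 97.4 ± 30.5 CPM after infarction, with rises of 1.52 ± 0.28 and 2.19 ± 0.28 (edgeR adjusted p = 0.000886 and 0.000414).

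Ltbp2 had the largest relative change of the 10. Ltbp2 (ENSMUSG00000002020, minus strand of chromosome 12, 84783212 to 84876532), a fibrillin-like protein that binds microfibrils and, unlike other members of its family, not latent TGF-beta, stood at 6.45, 7.34, 7.76 and 9.35 CPM in wild type and 73.6, 62.4, 45.99 and 64.3 CPM in homozygous hearts of 5 weeks. At 8 weeks it was 11.8, 13.8 and 9.26 CPM in wild type, 9.63, 36.7, 14.5 and 12.1 CPM in heterozygous and 254, 307, 366 and 371 CPM in homozygous hearts. Homozygous libraries lay far above the others at both ages, with rises over wild type of 6.87-fold (log2 2.78 ± 0.13, edgeR adjusted p = 1.49e-11) and 24.7-fold (log2 4.63 ± 0.404, edgeR adjusted p = 1.82e-06). Heterozygous replicate 2, at 36.7 CPM, was above every wild type library of that age, and the heterozygous change of 0.66 ± 0.36 on the log2 scale was not called. The homozygous effect grew from 3 to 5 weeks by 3.04 ± 0.598 (edgeR adjusted p = 0.000392) and from 5 to 8 weeks by 1.87 ± 0.59 (edgeR adjusted p = 0.0161) on the log2 scale.

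In the surgery series Ltbp2 was 16.95, 9.25, 17.4 and 4.65 CPM in shams, 23.3, 79.95, 68.1 and 74.1 CPM after ischemia-reperfusion and 174, 254, 119 and 95.6 CPM after infarction. All 4 infarction libraries were above all ischemia-reperfusion libraries, and these above all shams. Ltbp2 rose 4.26-fold after ischemia-reperfusion (edgeR adjusted p = 0.0013) and 11.99-fold after infarction (edgeR adjusted p = 0.000213), and stood higher after infarction than after ischemia-reperfusion by 1.49 ± 0.37 on the log2 scale (edgeR adjusted p = 0.0103). The highest group was the homozygous one of 8 weeks (325 ± 55.3 CPM), 42.6 times the lowest, the homozygous one of 3 weeks (7.62 ± 5.697 CPM). Without replicate 3 of the latter, at 16.13 CPM, that group stood at 4.78 ± 0.595 CPM (n = 3) and the ratio was 67.9. From heterozygous hearts downward, the groups at 3 weeks, the wild type groups and the shams overlapped. Its share of the summed level per kb was 1.405% ± 0.3 in wild type hearts of 8 weeks, 6.54% ± 0.479 in homozygous hearts of that age and 8.28% ± 1.25 after infarction.

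**Figure D3:**
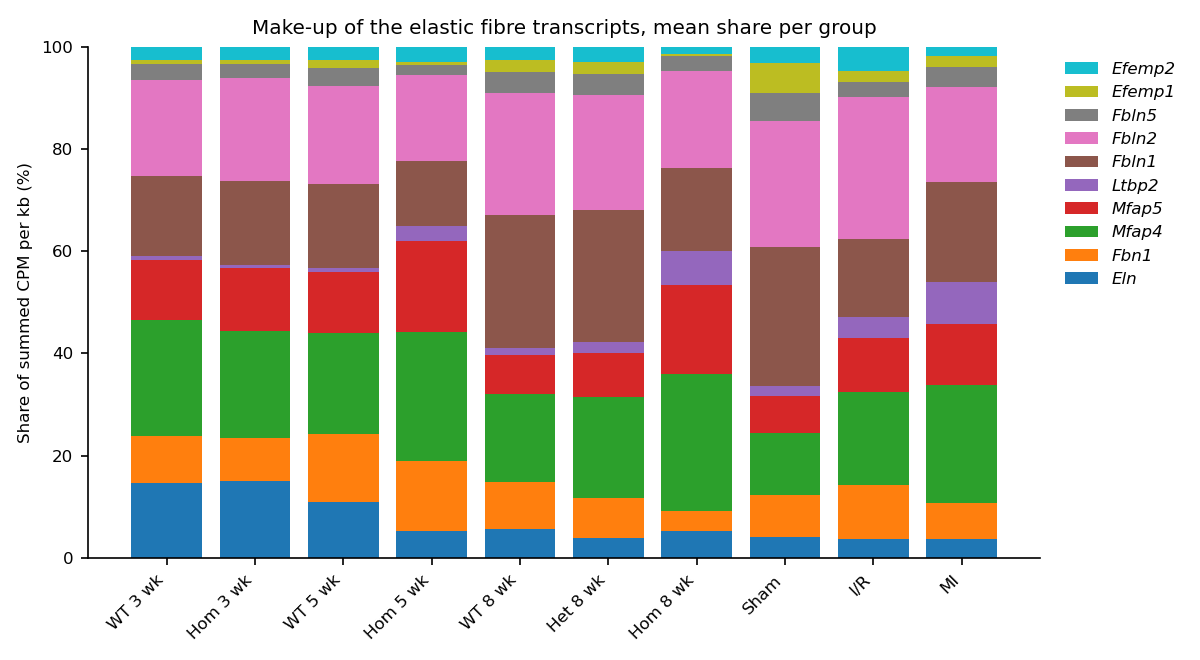
Mean share of each gene in the summed CPM per kb of the 10 elastic fibre genes, by group, in stacked bars from 0 to 100%. The Eln share was 14.6% in wild type hearts of 3 weeks and 5.62% in those of 8 weeks, and the Ltbp2 share was 1.40% in wild type hearts of 8 weeks and 8.28% after infarction.

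Among the fibulins, Fbln2 rose in each of the 4 comparisons. Fbln2 (ENSMUSG00000064080, plus strand of chromosome 6, 91212455 to 91272540), which binds elastin, fibrillin and basement membrane proteins, stood at 145, 155 and 163 CPM in wild type and 599, 722, 786 and 803 CPM in homozygous hearts of 8 weeks. The homozygous level was 4.202-fold higher (log2 2.07 ± 0.14, edgeR adjusted p = 4.63e-07), after a 1.67-fold rise at 5 weeks (edgeR adjusted p = 3.16e-08). At 5 weeks it was 140.2, 142, 133 and 147 CPM in wild type and 288, 271, 244 and 278 CPM in homozygous hearts, with no overlap.

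After surgery Fbln2 was 119, 102, 118 and 114 CPM in shams, 251, 359, 268 and 333 CPM after ischemia-reperfusion and 226, 372, 245 and 222 CPM after infarction. Both surgeries lay above all shams and overlapped each other. The rises were 1.19 ± 0.14 and 1.12 ± 0.14 on the log2 scale (edgeR adjusted p = 2.68e-05 and 0.000364).

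Fbln1 and Fbln5 shared another pattern, with rises in homozygous hearts of 8 weeks and after infarction while neither was called 3 days after ischemia-reperfusion. Fbln1 (ENSMUSG00000006369, plus strand of chromosome 15, 85205949 to 85286535), found in elastic fibres and basement membranes, stood at 124, 67.6, 80.5 and 84.6 CPM in shams, 119, 98.6, 114 and 110.2 CPM after ischemia-reperfusion and 272, 232, 147 and 136 CPM after infarction. Only the infarction libraries lay above all shams. Fbln1 rose by 1.03 ± 0.19 after infarction (edgeR adjusted p = 0.00349), while after ischemia-reperfusion the change was 0.09 ± 0.19 (edgeR adjusted p = 0.763), and the direct difference between the surgeries was 0.94 ± 0.19 on the log2 scale (edgeR adjusted p = 0.00263).

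In the mutant series Fbln1 was 93.05, 78.7, 86.6 and 74.4 CPM in wild type and 168, 137, 136 and 119 CPM in homozygous hearts of 5 weeks. At 8 weeks the values were 102, 134 and 113 CPM in wild type and 415, 495, 384 and 401 CPM in homozygous hearts. Groups were separate at both ages, and the rise was 1.46-fold at 5 weeks (edgeR adjusted p = 0.000126) and 3.26-fold at 8 weeks (edgeR adjusted p = 2.42e-06).

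Fbln5 (ENSMUSG00000021186, minus strand of chromosome 12, 101746565 to 101819055), which binds elastin and integrins, stood at 28.1, 27.3, 27.99 and 25.4 CPM in wild type and 38.9, 33.9, 29.6 and 32.5 CPM in homozygous hearts of 5 weeks. These homozygous values were all above the wild type ones, yet the fitted change, scaled by TMM, was 0.104 ± 0.09 and was not called (edgeR adjusted p = 0.371). With library size as the only scaling the change was 0.31 and was called (edgeR adjusted p = 0.00898), a setting that shifts the median of all genes by 0.21. At 8 weeks Fbln5 was 32.8, 29.6 and 23.04 CPM in wild type and 93.7, 131, 153 and 117 CPM in homozygous hearts, a 3.84-fold rise with no overlap (edgeR adjusted p = 1.44e-06). The effect at 8 weeks exceeded that at 5 weeks by 1.87 ± 0.21 (edgeR adjusted p = 5.3e-08).

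After surgery Fbln5 was 29.9, 24.1, 29.8 and 26.2 CPM in shams, 32.3, 34.4, 28.9 and 32.2 CPM after ischemia-reperfusion and 60.4, 79.9, 54.9 and 51.4 CPM after infarction. Shams and ischemia-reperfusion overlapped, and infarction lay above both. The change was -0.02 ± 0.11 after ischemia-reperfusion (edgeR adjusted p = 0.933) and 1.04 ± 0.11 after infarction (edgeR adjusted p = 0.000102), and the direct difference was 1.06 ± 0.11 (edgeR adjusted p = 1.71e-05).

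Efemp2, the gene of fibulin-4, rose after both surgeries, less after the infarction. Efemp2 (ENSMUSG00000024909, plus strand of chromosome 19, 5473954 to 5482517) stood at 11.5, 5.74, 8.96 and 10 CPM in shams, 24.2, 27.2, 30.7 and 38.5 CPM after ischemia-reperfusion and 15.2, 15.9, 15.2 and 13.997 CPM after infarction. The 3 groups did not overlap. Efemp2 rose 2.84-fold after ischemia-reperfusion (edgeR adjusted p = 8.98e-06) and 1.54-fold after infarction (edgeR adjusted p = 0.0253), and was lower after infarction than after ischemia-reperfusion by 0.88 ± 0.15 on the log2 scale (edgeR adjusted p = 0.00102). The infarction call was lost when infarction replicate 1, 2 or 3 or sham replicate 2 was left out (adjusted p from 0.0522 to 0.0655).

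In homozygous hearts Efemp2 was 29.9, 30.002, 21.97 and 30.9 CPM at 5 weeks, against 8.78, 12.6, 11.2 and 12.8 CPM in wild type. At 8 weeks it was 23.99, 29.7, 23.999 and 41.8 CPM against 11.5, 8.68 and 9.805 CPM. It rose 2.14-fold and 2.64-fold without overlap (edgeR adjusted p = 9.89e-07 and 3.86e-05), and no change of the effect between these ages was called (0.33 ± 0.25, edgeR adjusted p = 0.349). Its exons overlap those of Mus81 on the other strand over 4.57% of their length. Mus81 took 12916 counts in all against 9621 for Efemp2. Without the strand setting of the counting, it is not known whether reads of the shared stretch were told apart.

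Efemp1, the gene of fibulin-3, was the exception among the 10. Efemp1 (ENSMUSG00000020467, plus strand of chromosome 11, 28853204 to 28926743) had 18 to 224 counts per library. It stood at 5.11, 3.98 and 4.59 CPM in wild type and 5.49, 6.94, 7.01 and 5.804 CPM in homozygous hearts of 8 weeks. These CPM did not overlap, but the fitted change was 0.302 ± 0.19 and was not called (edgeR adjusted p = 0.186), and limma-voom with quality weights gave 0.40 with an adjusted p of 0.0467. At 5 weeks the change was -0.49 ± 0.24 (edgeR adjusted p = 0.107), and without wild type replicate 2 of that age it was called lower (-0.67, adjusted p = 0.0248).

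With age in wild type hearts Efemp1 rose by 0.95 ± 0.28 from 3 to 8 weeks (edgeR adjusted p = 0.0285), while Eln, Fbn1, Mfap4, Mfap5 and Efemp2 fell. The wild type values were 1.93, 1.85, 4.099 and 1.68 CPM at 3 weeks, with replicate 3 apart from the others and overlapping those of 8 weeks. Leaving out wild type replicate 1, 2 or 4 of 3 weeks, or any 1 of the 3 of 8 weeks, lost the call (adjusted p from 0.0526 to 0.102).

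After infarction Efemp1 was 19.05, 9.59, 6.54 and 4.61 CPM, spanning the shams at 8.6997, 9.36, 9.79 and 6.53 CPM. After ischemia-reperfusion it was 9.498, 9.26, 4.64 and 7.01 CPM. Neither change was called (0.07 ± 0.33 and -0.42 ± 0.34, edgeR adjusted p = 0.918 and 0.38).

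Between the surgeries directly, 4 of the 10 genes were higher after infarction than after ischemia-reperfusion (Fbln1, Fbln5, Mfap4 and Ltbp2), where 8.84% of all genes were called higher, and 1 was lower (Efemp2), where 11.2% were called lower. Mfap4 differed by 0.87 ± 0.28 (edgeR adjusted p = 0.0391), a call lost with DESeq2 (0.0867), with library size scaling (0.0798), and without any 1 of the 4 ischemia-reperfusion libraries or infarction replicate 1 or 2 (0.0532 to 0.103). Eln differed by 0.55 ± 0.24 (edgeR adjusted p = 0.126) and was called higher without infarction replicate 4, which was the lowest of the infarction libraries for all 10 genes (0.77, adjusted p = 0.0161). Age and time after surgery differ between these groups, and their effects cannot be told apart from that of the surgery.

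Tested as differences between effects in 1 fit of all 39 libraries, 6 of the 10 genes rose more at 5 than at 3 weeks in homozygous hearts (11.1% of all genes were called higher). These were Fbn1, Fbln2, Efemp2, Mfap4, Mfap5 and Ltbp2. Fbln1 was not called (0.50 ± 0.23, edgeR adjusted p = 0.118). It gained a call with library size scaling (edgeR adjusted p = 0.0409) and in a fit of only the groups in the contrast (0.0259). Mfap4 differed by 1.36 ± 0.46 (edgeR adjusted p = 0.0308) and lost the call without wild type replicate 2 or homozygous replicate 1, 2 or 4 of 3 weeks, and without wild type replicate 1 or homozygous replicate 1 or 4 of 5 weeks. From 5 to 8 weeks the effect grew for 7 of the 10 (14.4% of all genes), namely Eln, Fbln1, Fbln2, Fbln5, Mfap4, Mfap5 and Ltbp2. Efemp1 was called there only in a fit of just the groups in the contrast (0.81, edgeR adjusted p = 0.0426). Against the infarction effect, the homozygous effect at 8 weeks was larger for 6 of the 10 (19.6% of all genes), namely Eln, Fbln1, Fbln2, Fbln5, Efemp2 and Mfap5. Age, the muscle taken and the reference hearts also differ between these effects, and cannot be told apart from mutation and infarction. Shams of matching age were not used for this contrast. The difference of Eln lost its call without wild type replicate 1 or 2, homozygous replicate 2, infarction replicate 3 or 4, or sham replicate 1 or 3, that of Fbln1 without wild type replicate 1 or 3, infarction replicate 4 or sham replicate 1, and that of Efemp2 without wild type replicate 2, homozygous replicate 4 or sham replicate 1. Without sham replicate 1 the count was 3 of 10. In a fit of only the groups in the contrast Eln and Fbln1 lost the call (adjusted p = 0.0542 and 0.0669), which left 4 of 10. Ltbp2 and Mfap4, the genes with the larger fold changes in both settings along with Mfap5, were not called different (1.07 ± 0.57 and 0.700 ± 0.49, edgeR adjusted p = 0.137 and 0.269).

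**Figure D4:**
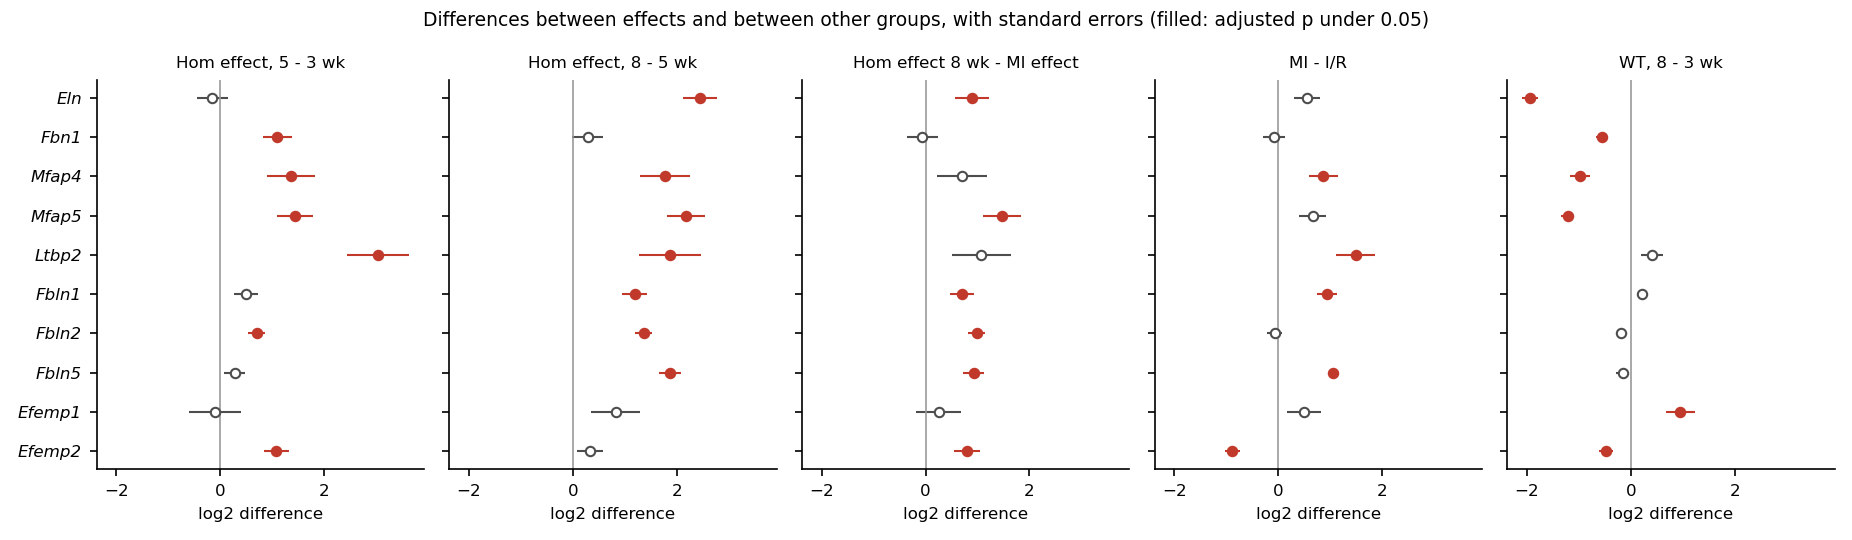
Log2 differences with standard errors for the 10 genes in 5 contrasts: the homozygous effect at 5 weeks minus that at 3, at 8 minus that at 5, at 8 weeks minus the infarction effect, infarction minus ischemia-reperfusion, and wild type hearts of 8 minus 3 weeks. Filled points passed an adjusted p under 0.05. Eln is at -0.16 in the first panel and 2.44 in the second.

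Among the lists of related genes, most genes of the elastin crosslinking list rose, at 5 weeks without a called change of Eln itself. The list held Lox, Loxl1, Loxl2, Loxl3, Loxl4, Atp7a and Fkbp10, of which Atp7a and Fkbp10 are not crosslinking enzymes. Of 7 crosslinking genes 6 rose and none fell in homozygous hearts at 5 weeks and likewise at 8 weeks, 6 rose after ischemia-reperfusion and 4 after infarction, where 22.3%, 30.8%, 16.9% and 6.62% of all genes were called higher. Their median log2 fold changes were 1.14, 1.76, 1.55 and 1.21. Lox, the lysyl oxidase that starts the crosslinks of elastin and collagen, rose 6.39-fold at 5 weeks (61.4 ± 9.19 against 8.29 ± 1.998 CPM in wild type) and 37.4-fold at 8 weeks (180.1 ± 67.98 against 4.26 ± 0.458 CPM), with edgeR adjusted p = 3.58e-11 and 2.63e-07. Its change was 12.1-fold after ischemia-reperfusion and 4.07-fold after infarction, and it was lower after infarction than after ischemia-reperfusion (log2 -1.57 ± 0.29, edgeR adjusted p = 0.00154). Loxl1, the family member tied to elastin upkeep, rose 2.2001-fold at 5 weeks and 2.85-fold after infarction, and Loxl3 6.83-fold at 8 weeks and 4.38-fold after infarction.

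Partners of the microfibril rose and fell in equal number at 5 weeks. Of 24 such genes 9 rose and 9 fell in homozygous hearts of 5 weeks, 13 rose and 4 fell at 8 weeks, 7 rose and 1 fell after ischemia-reperfusion, and 9 rose and 1 fell after infarction. Of all genes 22.3%, 30.8%, 16.9% and 6.62% were called higher in these comparisons, and 21.4%, 29%, 14.1% and 4.77% lower. Falls in the list stood above the share called lower at 5 weeks. They were below it at 8 weeks and after ischemia-reperfusion, and near it after infarction. The medians of the list were 0.02, 0.44, 0.16 and 0.23 on the log2 scale. Bgn, which encodes the small proteoglycan biglycan, rose 2.91-fold at 5 weeks, 7.48-fold at 8 weeks and 3.27-fold after infarction (edgeR adjusted p = 1.32e-11, 6.92e-07 and 0.000414). Emilin1, an elastin-associated glycoprotein, rose 2.14-fold at 5 weeks and 3.01-fold after ischemia-reperfusion, whereas its relative Emilin2 fell by 0.86 ± 0.08 and 0.98 ± 0.11 on the log2 scale at 5 and 8 weeks. Ltbp3, which does carry latent TGF-beta, rose 3.07-fold at 8 weeks and 1.801-fold after infarction. Hmcn2, a large fibulin-related protein, fell by 0.68 ± 0.08 and 2.14 ± 0.33 on the log2 scale at 5 and 8 weeks, Hmcn1 by 0.43 ± 0.14 after ischemia-reperfusion and Adamtsl4, which binds fibrillin-1, by 0.44 ± 0.12 after infarction. Fbn2, the fetal fibrillin, rose 2.66-fold at 5 weeks, 3.55-fold at 8 weeks and 2.81-fold after ischemia-reperfusion (7.62 ± 1.499 against 2.28 ± 0.726 CPM in shams).

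Of 11 listed proteases that can cut elastin, those too low in counts were not tested. At 5 weeks 7 of 7 tested genes rose and at 8 weeks 7 of 8. After ischemia-reperfusion 7 of 8 rose, after infarction 3 of 8, and none fell in these comparisons. Of all genes 22.3%, 30.8%, 16.9% and 6.62% were called higher in them. Ctss, the macrophage protease cathepsin S, rose 7.13-fold at 5 weeks, 9.36-fold at 8 weeks and 9.48-fold after ischemia-reperfusion (edgeR adjusted p = 9.86e-13, 1.64e-06 and 4.18e-07), and was not called after infarction (0.698 ± 0.22, edgeR adjusted p = 0.051). Mmp14, a membrane-bound matrix protease, rose 2.44-fold at 5 weeks and 3.68-fold after ischemia-reperfusion. Ctsk, cathepsin K, rose 11.4-fold at 8 weeks and 2.28-fold after infarction, where Mmp2 rose 1.76-fold. Macrophage markers moved with these genes: 10 of 10 rose at 5 weeks (summed 1242 to 1602 CPM in homozygous and 324 to 352 CPM in wild type hearts), 9 of 10 at 8 weeks, 10 of 10 after ischemia-reperfusion and 2 of 10 after infarction. Their part in the protease result was not tested.

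Of 13 elastin receptor, integrin and TGF-beta genes, 12 rose at 5 weeks and 11 at 8 weeks. After ischemia-reperfusion 10 of 13 rose and after infarction 6 of 13, with none falling in any of these comparisons. Of all genes 22.3%, 30.8%, 16.9% and 6.62% were called higher in them. Tgfb2, a TGF-beta ligand, rose 3.502-fold at 5 weeks and 2.92-fold after infarction, Tgfb3 2.38-fold after infarction and the receptor Tgfbr1 2.82-fold at 8 weeks. Itgb5, an integrin subunit that helps release active TGF-beta, rose 1.81-fold at 5 weeks and 3.16-fold at 8 weeks. Its partner Itgav rose 1.87-fold at 5 weeks, 1.87-fold at 8 weeks and 1.77-fold after ischemia-reperfusion. Ctsa, part of the elastin receptor complex, rose 1.72-fold, 1.95-fold and 1.44-fold in these comparisons.

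**Figure D5:**
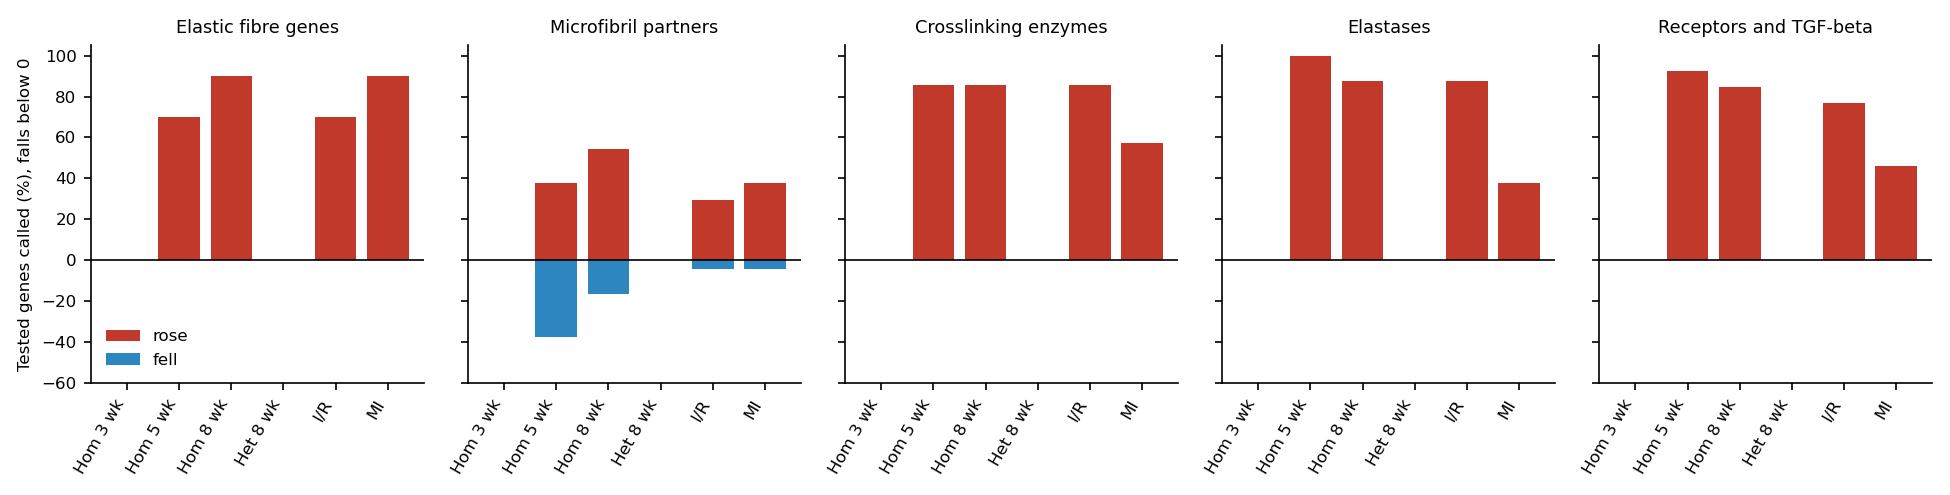
Share of the tested genes of each list that passed an adjusted p under 0.05 (vertical axis, rises above 0 and falls below), in 6 comparisons. Microfibril partners are the only one of the 5 lists with falls, 9 of 24 at 5 weeks and 4 of 24 at 8 weeks.

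A single collagen gene was set beside the elastic fibre genes. Col1a1, the main fibrillar collagen chain of scar, rose 4.002-fold at 5 weeks and 4.17-fold at 8 weeks, and its homozygous effect showed no called growth between these ages (0.08 ± 0.41, edgeR adjusted p = 0.91). After surgery it rose 8.505-fold with ischemia-reperfusion and 2.06-fold with infarction. It was lower after infarction than after ischemia-reperfusion by 2.05 ± 0.32 on the log2 scale (edgeR adjusted p = 0.000458), where Ltbp2, Mfap4, Fbln1 and Fbln5 were higher and Efemp2 was lower. Growth of the effect from 5 to 8 weeks was not called for Efemp2, Fbn1 and Efemp1 either.

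Fibroblasts and vascular smooth muscle are the main sources of these proteins, and in bulk tissue fewer or more cells of a type and less or more RNA per cell cannot be told apart. In homozygous hearts 22.3% of all genes were called higher at 5 weeks and 30.8% at 8 weeks. Of 12 fibroblast markers 10 rose at 5 weeks and 11 at 8 weeks, and none fell. Their summed level was 7730 to 9492 CPM in homozygous against 3486 to 3511 CPM in wild type hearts of 5 weeks, and 9387 to 15558 against 2927 to 3384 CPM at 8 weeks. Ischemia-reperfusion had 16.9% of all genes called higher and 14.1% lower, and infarction had 6.62% called higher. After ischemia-reperfusion 6 of the 12 fibroblast markers rose and 1 fell (5937 to 9832 CPM). After infarction 7 rose (3783 to 5751 CPM), and shams held 2417 to 3574 CPM. No fibroblast marker was at 0 in any library. Of 9 activated fibroblast markers 8 rose at each of 5 and 8 weeks and 6 after each surgery. At 5 weeks 1 fell, where 21.4% of all genes were called lower. The sum of the 9 was 2693 to 4324 CPM in homozygous against 376 to 401 CPM in wild type hearts of 8 weeks. What part fibroblast markers had in the rise of the elastic fibre genes was not tested.

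Smooth muscle markers, which share Acta2 with the activated fibroblast list, fell in 6 of 8 in homozygous hearts of 5 weeks (616 to 752 against 922 to 1038 CPM), while at 8 weeks 3 fell (Myh11, Mylk and Smtn) and Tagln rose. After ischemia-reperfusion Acta2 and Tagln rose and Synpo2 fell, and the sum was 780.01 to 896 CPM against 601 to 774 CPM in shams. After infarction Myh11 fell and none rose. In wild type hearts their sum was 1353 to 1804 CPM at 3 weeks and 789 to 864 CPM at 8 weeks, but only Acta2 (log2 -2.196) and Smtn (-0.24) of the 8 were called lower, with a median of -0.07. Pericyte markers fell in 8 of 8 at 5 weeks and 6 of 8 at 8 weeks, endothelial markers in 8 of 9 and 4 of 9 (with 3 rising at 8 weeks), and cardiomyocyte markers in 8 of 10 and 7 of 10, where 21.4% and 29% of all genes were called lower. Mesothelial markers are 8 genes of the heart's outer lining. In a wild type library of 8 weeks up to 3 of them were at 0. At 8 weeks they summed to 17.9 to 29.2 CPM in homozygous and 5.001 to 8.502 CPM in wild type hearts. At that age 5 of 6 tested rose, where 30.8% of all genes were called higher. Adipocyte markers rose in 4 of 4 tested after infarction, where 6.62% of all genes were called higher. The sum of these markers after infarction ranged widely (2.99 to 104 CPM, shams 0.979 to 11.4 CPM). Against ischemia-reperfusion all 4 were also higher after infarction, where 8.84% of all genes were. In homozygous hearts of 8 weeks 2 of 4 tested adipocyte markers rose (6.95 to 27.1 against 3.43 to 4.76 CPM in wild type). Cartilage and tendon markers rose in 2 of 2 tested in homozygous hearts of 5 weeks, where 22.3% of all genes were called higher. They rose in 3 of 4 at 8 weeks and 1 of 4 after each surgery. Atrial markers spanned 34.2 to 749 CPM after infarction against 64.4 to 329 CPM in shams, with none of 5 tested called. The part of these cells in the elastic fibre results was not tested.

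Across the 10 group means (log2 of CPM + 1) the median correlation between pairs of the 10 genes was 0.737, and 5 of 45 pairs were above 0.9 and 13 below 0.5. These 10 points share the scaling to library total. Elastin and Efemp1 ran most apart (r = -0.556). Among 11588 genes with at least 5 CPM in a group, the closest pattern to Eln was that of Mocs2 (r = 0.959), to Fbn1 that of Phtf1 (0.972), to Fbln1 Gab2 (0.986), to Fbln2 Ptgis (0.987), to Fbln5 Dkk3 (0.985), to Efemp1 2310002L09Rik (0.955), to Efemp2 Ywhaz (0.988), to Mfap4 Igfbp7 (0.986) and to Mfap5 Antxr1 (0.987).

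Promoter windows were read from RefSeq (GRCm38.p6), 250 bases before to 50 after the start, and 7 of the 10 genes matched one. The bases upstream of the start are shown for 3 of them, picked after their values were seen: Ltbp2, with the largest rise, Fbln5, which rose late, and Efemp1, which was called in none of the 4 comparisons. Capitals mark matches to AP-1 (TGANTCA) and the GC box (GGGCGG, printed as CCGCCC where it lies on the other strand). The first is chr12:84876533-84876741 (minus strand), the second chr12:101819120-101819369 (minus strand) and the third chr11:28852955-28853203 (plus strand), each 5′ to 3′ along the gene. Bases inside the annotated gene are not printed, among them those nearest the RefSeq start of Ltbp2, which hold its second GC box.
Ltbp2: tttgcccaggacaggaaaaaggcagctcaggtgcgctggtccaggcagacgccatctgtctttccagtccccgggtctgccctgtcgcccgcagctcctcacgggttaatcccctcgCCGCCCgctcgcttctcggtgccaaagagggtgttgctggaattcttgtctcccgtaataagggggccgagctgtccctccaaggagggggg
Fbln5: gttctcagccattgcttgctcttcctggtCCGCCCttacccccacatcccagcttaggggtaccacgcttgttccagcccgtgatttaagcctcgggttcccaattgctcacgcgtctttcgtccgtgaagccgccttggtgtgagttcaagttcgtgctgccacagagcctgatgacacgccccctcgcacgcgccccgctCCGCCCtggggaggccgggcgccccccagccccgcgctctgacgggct
Efemp1: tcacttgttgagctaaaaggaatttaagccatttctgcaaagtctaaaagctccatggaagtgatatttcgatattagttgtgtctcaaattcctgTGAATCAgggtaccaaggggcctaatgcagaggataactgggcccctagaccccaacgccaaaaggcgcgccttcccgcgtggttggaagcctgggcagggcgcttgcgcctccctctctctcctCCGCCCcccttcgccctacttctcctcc
The GC box was found on either strand in 6 of the 7 windows and in 35.7% of 32851 windows in the table. Base composition differs too: these 6 windows held 54.33% to 65.67% G and C, against a median of 52.67% over all windows. The Fbln1 window, without a GC box, held 51.67%. AP-1 letters were in 1 of 7, that of Efemp1, and in 7.81% of all windows, and the E-box CAGCTG in 2 of 7 (Fbn1 and Fbln1) and 16.3% of all. TEAD (GGAATG), SMAD (GTCTAGAC) and TATA box (TATAAA) letters were in none of the 7, and in 14.7%, 0.213% and 13.6% of all windows. The loose CArG-like pattern, a pair of C and a pair of G with any 6 bases between them, in 6 of 7 windows and 73.3% of all, is not marked. Matches are a description of letters in these windows, and searches for different motifs can overlap.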

How the data were processed

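Per the labels' protocols, total RNA was extracted with Trizol and made into stranded TruSeq mRNA libraries. Per the submitters' processing notes, tools named are STAR 2.7.3a, featureCounts of Subread 2.0.0 and the genome mm10. Annotation release and strand setting: not given in the sources used here. The authors deposited raw counts, whole numbers for 38293 genes in 39 libraries. Depth was 9.40 M to 19.3 M counts. GENCODE vM21 (GRCm38) named 36345 gene IDs, and unnamed IDs, kept in the totals, took 0.133% of counts.

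CPM are counts scaled to the library total, and CPM per kb divide by the union length of exons. Fold changes come from edgeR 4.0.16 (R 4.3.3), with TMM, filterByExpr, the quasi-likelihood test and Benjamini-Hochberg adjustment over all genes at 0.05, so they can differ from a ratio of CPM. Standard errors were derived from the F statistic and the log2 fold change. Each fit held the groups of 1 age, the wild type groups or the surgery set, and differences between effects were contrasts in 1 fit of all 39 libraries. The scripts were tested on simulated data. None of 57 replicate pairs was identical (chi-square per gene 4.03 to 97.4).

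The 10 genes, the related lists and the cell markers were chosen from general knowledge with earlier results of these data known. All 10 genes were named, and from each related list up to 2 called genes per direction with the smallest p in each of 4 comparisons, and Col1a1. Alternatives were DESeq2 1.42.0, limma-voom (limma 3.58.1), other scalings, filters and sets of libraries, shams of matching age, a replicate block, and each library left out.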

Additional observations from a re-analysis of the deposited data

Results flagged for a closer look

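In groups of 4, the highest or lowest library stood apart from the other 3 (a gap of over 0.829 of the group's range) in 9 of 90 combinations of gene and group, where chance gives about 1 in 20. Heterozygous replicate 2 was the high library for Fbn1 (122.8 CPM, others 83.5 to 88.5) and Efemp2 (15.01 CPM, others 10.6 to 10.7). Wild type hearts of 3 weeks had replicate 3 high for Efemp1 (4.099 CPM, others 1.68 to 1.93) and replicate 2 for Efemp2 (16.89 CPM, others 13.1 to 13.5). Homozygous replicate 3 of 3 weeks was high for Ltbp2 (16.13 CPM, others 4.10 to 5.22). At 5 weeks wild type replicate 1 was high for Mfap5 (58.85 CPM, others 45.7 to 47.8) and homozygous replicate 3 low for Efemp2 (21.97 CPM, others 29.9 to 30.9). In the surgery series infarction replicate 2 was high for Fbln2 (372 CPM, others 222 to 245) and ischemia-reperfusion replicate 1 low for Mfap4 (36.94 CPM, others 67.7 to 69.5).

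Tested as interactions, 19 differences between effects passed the threshold. The homozygous effect was larger at 5 than at 3 weeks, on the log2 scale, by 1.10 for Fbn1, 0.71 for Fbln2, 1.08 for Efemp2, 1.36 for Mfap4, 1.44 for Mfap5 and 3.04 for Ltbp2. It was larger at 8 than at 5 weeks by 2.44 for Eln, 1.19 for Fbln1, 1.36 for Fbln2, 1.87 for Fbln5, 1.77 for Mfap4, 2.17 for Mfap5 and 1.87 for Ltbp2. It was larger at 8 weeks than the infarction effect by 0.89 for Eln, 0.70 for Fbln1, 0.98 for Fbln2, 0.92 for Fbln5, 0.80 for Efemp2 and 1.47 for Mfap5.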

How the results depend on the processing

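Over 120 results (10 genes in 12 comparisons), 98 kept their side of the threshold under all the alternatives run and 75 of these also their sign. All 71 called results kept their sign, 11 of them lost the call at least once, and of 49 results without a call 11 gained one and 24 changed sign. Genes called at 3 weeks were 0 in the edgeR fit of that age, 25 without a filter on low counts, 112 with DESeq2 and 40 in a fit of all 39 libraries, and 0 to 4 with 1 library left out (4 without homozygous replicate 2). With shams of matching age, 2174 genes were called after ischemia-reperfusion and 853 after infarction, against 4222 and 1550. The infarction count ran from 663 (without infarction replicate 2) to 1651 with 1 library left out. Between wild type hearts of 8 and 3 weeks, a fit of all 39 libraries called 1254 genes and 2 of the 10, against 2245 and 6, and leaving out 1 library gave 1350 (without replicate 2 of 8 weeks) to 2208 genes. Members with a larger homozygous than infarction effect numbered 3 to 6 with 1 library left out. Counts after infarction and of old against young wild type hearts therefore rest on few libraries.

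Library size scaling moved the median of all genes by 0.21 at 5 weeks, 0.16 at 8 weeks, 0.23 after ischemia-reperfusion and 0.11 after infarction. The share of calls that were higher moved from 51.0% to 79.2%, 51.5% to 63.6%, 54.5% to 90.7% and 58.1% to 81.6%. For infarction against ischemia-reperfusion it moved from 44.1% to 19.5%, and for the effect at 5 against 3 weeks and at 8 against 5 weeks from 54.4% to 82.2% and 51.0% to 39.2%. No elastic fibre gene changed direction in a called result.

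Whether replicate numbers pair the samples is not stated in the sources used here. Correlations of same-numbered deviations ran from -0.0962 to 0.233, which cannot settle it, and the main fits used no pairing. With a replicate block, 0 genes were called at 3 weeks, 5901 at 5 weeks, 8170 at 8 weeks, 0 in heterozygous against wild type, 8649 in homozygous against heterozygous hearts and 2878 between the surgeries. Elastic fibre genes called in these 6 fits were 0, 7, 9, 0, 9 and 6. The last, a fit of the surgery groups without shams, adds Mfap5 (0.71, edgeR adjusted p = 0.0156). Mfap5 was also called without ischemia-reperfusion replicate 2 (edgeR adjusted p = 0.0470), without a filter on low counts (0.0394) and in a fit of all 39 libraries (0.0440). The gained call can therefore not be put down to the block. Efemp1, at 18 to 224 counts per library, is the member that depth limits most.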
